A study of Homo sapiens with 15 samples.

Results

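The genes described here were 59 genes of nucleolar ribosome biogenesis, chosen by symbol, out of 28518 gene symbols in the count table. All 59 were found, and all 59 were among the 14971 genes with enough reads to be tested. They were ordered by what their products do: 7 genes of RNA polymerase I transcription, 4 of nucleolar phosphoproteins, 3 of the box C/D and 4 of the box H/ACA small nucleolar ribonucleoproteins (snoRNPs), 19 of small-subunit assembly and 22 of large-subunit assembly.

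Ribosomes are built mostly in the nucleolus, where RNA polymerase I transcribes ribosomal RNA (rRNA) as a long precursor. SnoRNPs modify that precursor base by base, and a large set of assembly factors fold and cut it, and load ribosomal proteins onto it, along separate small-subunit and large-subunit paths. In the epidermis this work is most active in the dividing basal keratinocytes, and many of its genes are textbook targets of the transcription factor MYC, which binds E-box DNA.

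The cells were HaCaT, an immortalised human keratinocyte line, in which the gene CARD14 had been edited with CRISPR. Its product gathers BCL10 and MALT1, a protease, into a signalling complex upstream of NF-kB. Each of the 5 groups had 3 libraries with the letters a to c: CARD14 WT/WT cells with vehicle (DMSO), CARD14 R820W/R820W cells with vehicle, CARD14 KO cells with vehicle, and WT/WT and R820W/R820W cells with 10 µM mepazine, a phenothiazine inhibitor of MALT1. Treatment lasted 24 h and began on the day after plating, and every group was grown in the same medium. The 15 libraries included no KO cells with mepazine. The number of edited lines behind each genotype is not given, so an effect of the genotype and a trait of the line cannot be told apart. The study asked which pathways differ with CARD14 genotype and with MALT1 inhibition.

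Libraries held 20630099 to 26974363 counts, and 3 counts were worth 0.111 to 0.145 CPM (counts divided by TMM-scaled library size). Every member had at least 428 counts in every library, far above that level. Changes are log2 fold changes ± SE from the quasi-likelihood test of edgeR, called at an adjusted p under 0.05 (Benjamini-Hochberg, over the 14971 genes). CARD14 itself was scarce, at 24 to 46 counts per library. It had 1.67, 1.13 and 1.76 CPM in WT vehicle and 1.80, 2.01 and 1.53 CPM in KO vehicle (libraries a, b and c, the order kept for all such values), so its transcript level did not check the knockout label. The 10 keratinocyte markers were all detected, with a summed 5730 to 6010 CPM in the WT vehicle libraries, 4370 to 4660 in R820W vehicle, 5680 to 6370 in KO vehicle, 4860 to 5340 in WT mepazine and 4310 to 4630 in R820W mepazine. In bulk RNA, fewer cells of a type and less RNA per cell cannot be told apart.

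The 59 genes took 1.12 ± 0.0318% of all counts in the WT vehicle group (SD, n = 3) and 1.13 ± 0.0243% in KO vehicle. The share was 1.01 ± 0.0201% in R820W vehicle, 0.936 ± 0.0324% in WT mepazine and 0.740 ± 0.0154% in R820W mepazine. R820W cells under mepazine thus gave these genes the smallest share of their reads, below that of either R820W vehicle or WT mepazine. The lowest place was shared by every gene: the R820W mepazine group had the lowest mean of the 5 groups for 59 of 59 members. The highest mean was in KO vehicle for 48 members, in WT vehicle for 10 and in R820W vehicle for 1, NOP10. Between KO and WT vehicle, 0 of the 59 members passed the edgeR test. Such counts of means were not made over all genes. For 56 members (94.9%) the 3 R820W mepazine libraries lay below all the other 12 libraries, against 19% of all genes tested, and the exceptions were NOP10, POLR1A and UBTF.

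Within each library the members were shifted together. On the log2 scale, relative to the mean of WT vehicle, the median member stood at 0.037, 0.015 and -0.041 in WT vehicle, and at 0.041, 0.047 and 0.013 in KO vehicle. It stood at -0.17, -0.12 and -0.15 in R820W vehicle, at -0.29, -0.27 and -0.33 in WT mepazine, and at -0.65, -0.64 and -0.66 in R820W mepazine. The libraries of WT vehicle and KO vehicle overlapped, while each of the other 3 groups stood apart from them and from each other. The median of all genes tested stayed between -0.0030 and 0.022 in the same libraries. The TMM scaling itself places most genes near 0, so that median is not a separate observation.

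**Figure D1:**
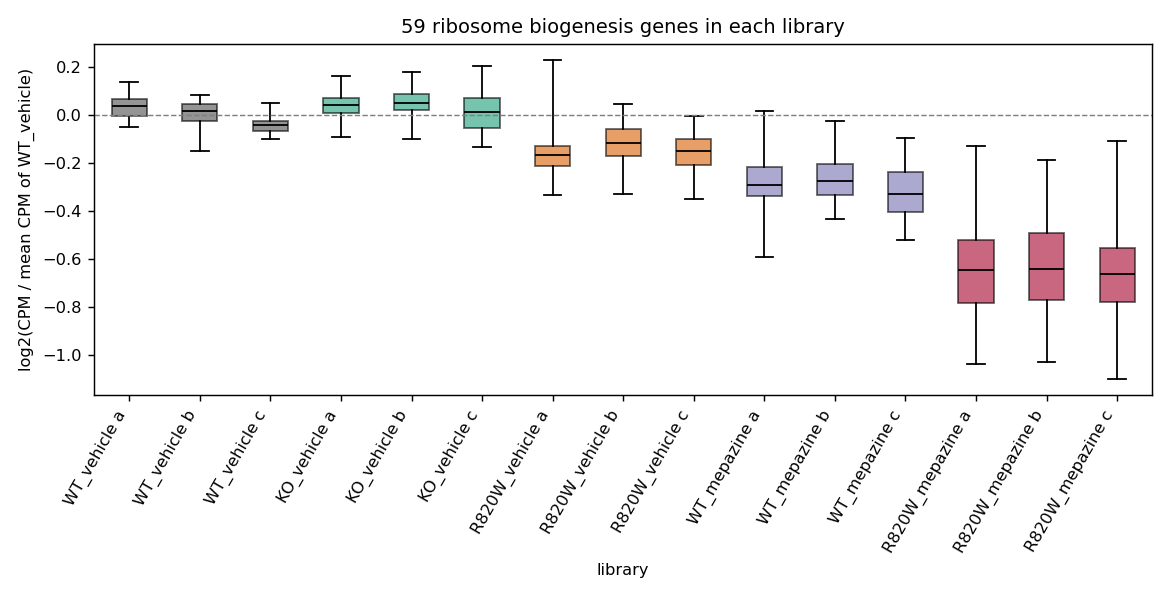
Levels of the 59 genes in each of the 15 libraries, as log2 of CPM over the mean CPM of the WT vehicle group; boxes span the quartiles, lines in them the median, and whiskers reach the lowest and highest gene. The medians run from -0.64 to -0.66 in the R820W mepazine libraries and from -0.041 to 0.047 in the WT and KO vehicle libraries.

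Under vehicle, many of these genes had lower scaled levels in R820W cells than in WT cells, by modest amounts. Of the 59 members, 32 were lower and 0 higher, while 8.61% of all genes tested were lower and 10.6% higher. The median member change was -0.15, with a range of -0.33 to 0.086, beside a median of 0.0009 over all genes. For 44 members the 3 R820W values lay below the 3 WT values, which held for 18.1% of all genes. The count varied with single libraries and with the scaling: it was 19 without WT vehicle a, 20 without R820W vehicle c and 20 with library totals and no scaling factor.

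All 4 nucleolar phosphoproteins were lower. NPM1, the abundant nucleolar chaperone nucleophosmin, had 1603, 1641 and 1557 CPM in the WT vehicle libraries, 1269, 1275 and 1274 in R820W vehicle and 1607, 1755 and 1630.5 in KO vehicle. Its R820W values were nearly equal to each other and below every WT and KO value. NPM1 was 20.5% lower in R820W than in WT (-0.33 ± 0.043, adjusted p = 1.75e-06), the largest drop of the 59. GENCODE v29 lists 45 pseudogenes named after NPM1, so its reads may be shared with near-identical copies and its level is uncertain. TCOF1 encodes treacle, which links RNA polymerase I transcription to rRNA modification. It had 186, 182 and 168 CPM in WT, 147, 150.3 and 150.5 in R820W and 199.6, 199 and 206 in KO cells with vehicle. The 3 groups did not overlap, R820W being lowest and KO highest. The TCOF1 change between R820W and WT was -0.26 ± 0.042 (adjusted p = 3.99e-05). NCL, the pre-rRNA binding protein nucleolin, had 2124, 2148 and 1949 CPM in WT vehicle and 1799, 1821 and 1786 in R820W vehicle, without overlap, a change of -0.20 ± 0.042 (adjusted p = 0.000729). NOLC1, a chaperone of snoRNPs, changed by -0.19 ± 0.043 (adjusted p = 0.00221).

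The box C/D snoRNP adds methyl groups to rRNA, and the 3 of its core protein genes on the list were all lower in R820W than in WT. FBL, the methyltransferase fibrillarin, changed by -0.16 ± 0.044, and the scaffold proteins NOP56 and NOP58 by -0.19 ± 0.041 and -0.23 ± 0.056 (adjusted p = 0.00988, 0.00127 and 0.00375). The FBL call was lost without WT vehicle a and with no scaling factor. Of the 4 genes of the box H/ACA snoRNP, which makes pseudouridine, only DKC1 passed the test. DKC1, the pseudouridine synthase dyskerin, had 341, 335 and 326 CPM in WT vehicle and 274, 293 and 274 in R820W vehicle, without overlap (-0.25 ± 0.042, adjusted p = 4.21e-05). NHP2 and GAR1 had -0.13 and -0.13 (adjusted p = 0.0644 and 0.165). NOP10, the remaining protein of the particle, had 0.086 ± 0.076 (adjusted p = 0.5), the only value above 0 among the 59. Whether NOP10 differed from its partners was not tested.

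On the large-subunit path 13 of 22 genes were lower in R820W than in WT. RRS1, which helps load a small rRNA-protein particle into the large-subunit precursor, had 101, 99.7 and 93.1 CPM in WT vehicle and 79.02, 86.1 and 78.9 in R820W vehicle. The groups did not overlap, and the change was -0.27 ± 0.045 (adjusted p = 5.52e-05). NOP16 had 44.3, 45.8 and 42.4 CPM in WT and 36.4, 37.1 and 34.6 in R820W, again without overlap (-0.29 ± 0.054, adjusted p = 0.000212). Of the PES1, BOP1 and WDR12 complex, which matures the large-subunit rRNA, PES1 and WDR12 were lower (-0.20 ± 0.043 and -0.18 ± 0.046), and BOP1 had -0.14 ± 0.054 with adjusted p = 0.062. The GTPase nucleostemin, GNL3, the methyltransferase NOP2 and the stalk-assembly factor MRTO4 were lower by smaller amounts (-0.14, -0.15 and -0.16). Without single libraries, GNL3, NOP2 and MRTO4 each lost the call.

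On the small-subunit path 8 of 19 genes were lower in R820W than in WT. They were the late small-subunit factors PNO1 and LTV1, the U3 snoRNP protein RRP9, its partner IMP4, the processome proteins NOP14, WDR43 and PWP2, and the acetyltransferase NAT10, and their changes ran from -0.24 for PNO1 to -0.16 for NOP14. HEATR1, a scaffold of the early processome, did not pass: it had 273, 292 and 272 CPM in WT vehicle and 254, 283 and 264 in R820W vehicle, with overlapping values (-0.064 ± 0.045, adjusted p = 0.372). Among the 7 RNA polymerase I genes 3 were lower: the subunits POLR1C and POLR1E (-0.14 and -0.23) and TAF1D, a part of the promoter selectivity factor (-0.17). The POLR1C call was lost without any 1 of the 6 libraries, and under DESeq2 (adjusted p = 0.0587). Across all roles, 16 of the 32 calls held in every alternative fit and with any single library left out.

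**Figure D2:**
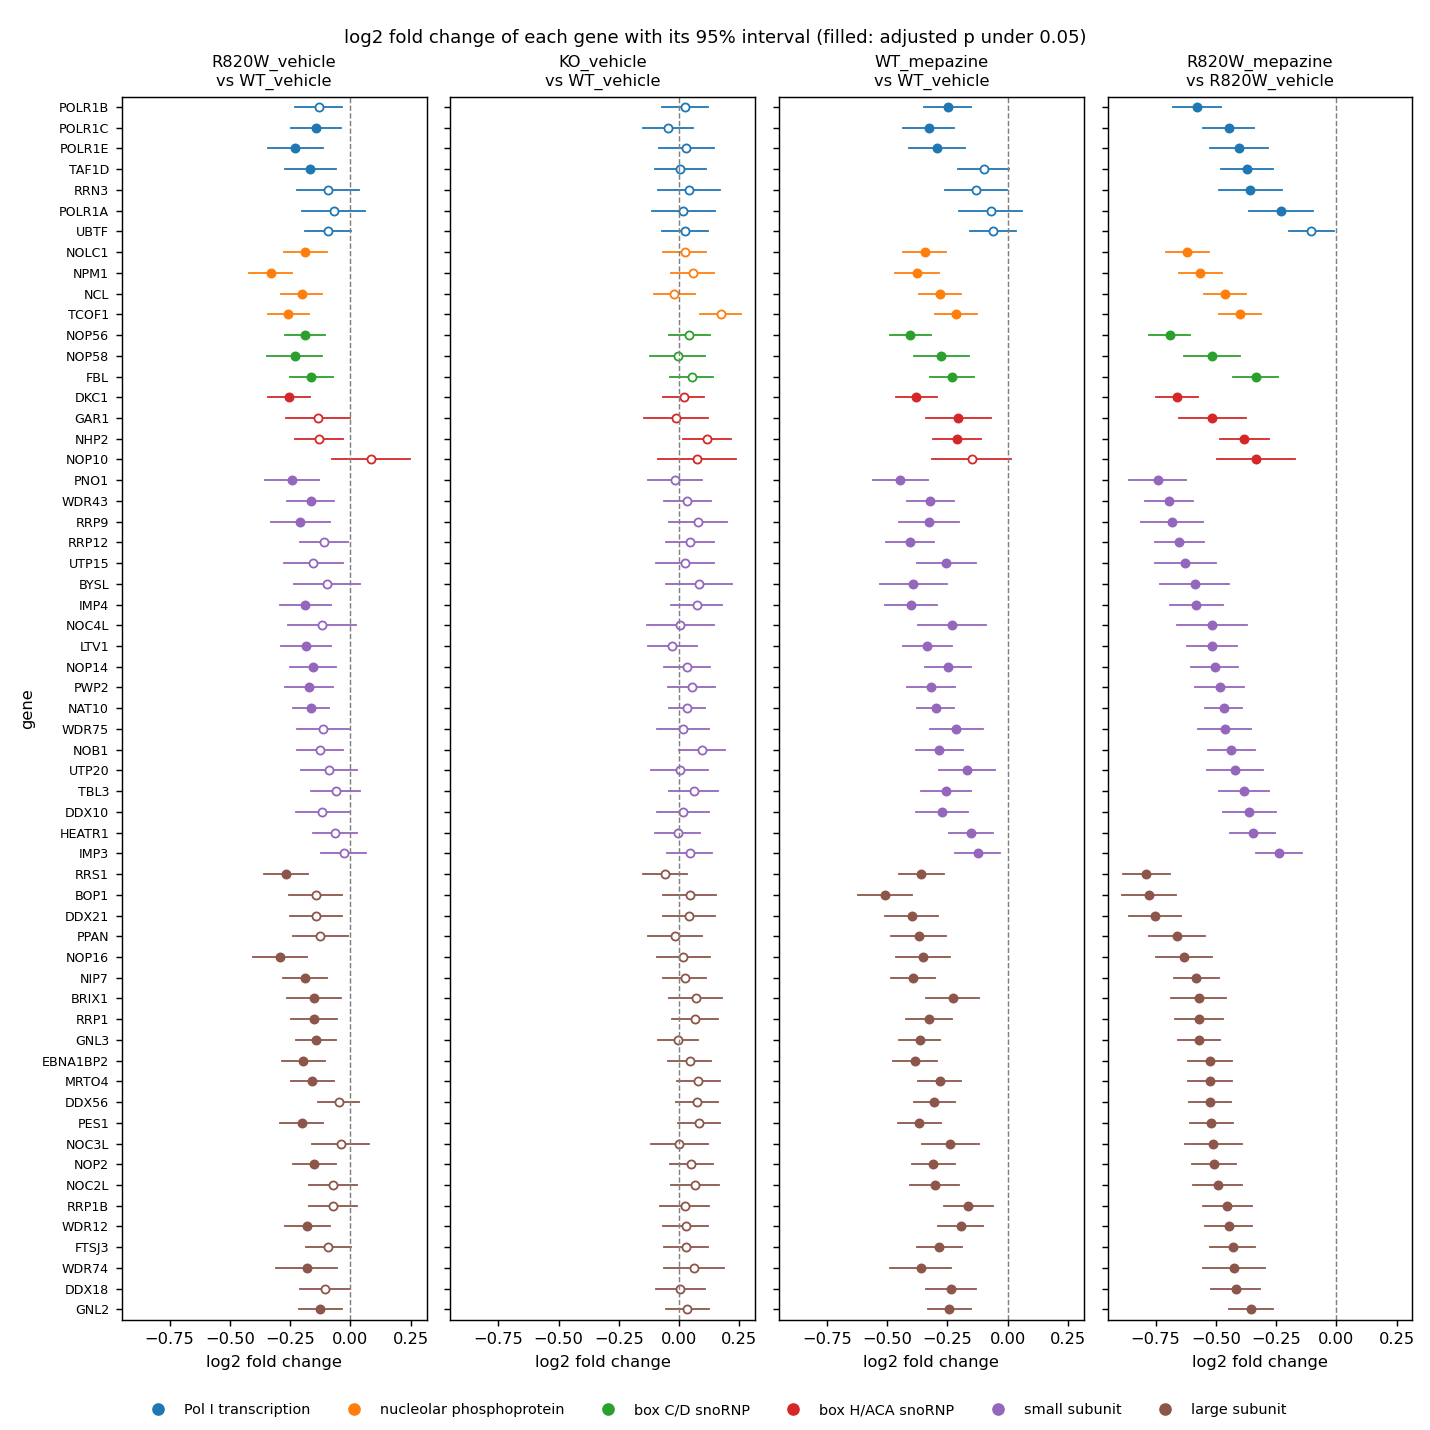
Log2 fold change (horizontal axis) of each of the 59 genes (vertical axis, grouped by role and coloured by it) in 4 comparisons, with 95% intervals from the edgeR fit; filled points passed the test at an adjusted p under 0.05. Filled points number 32, 0, 54 and 58 from left to right, and all of them lie below 0.

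The start sites of these genes often carried the E-box CACGTG, the sequence bound by MYC with its partner MAX and by related factors. RefSeq promoters (GRCh38.p14, 250 bases before to 50 after the start) were matched for 50 of the 59 members, and the motif, which reads the same on both strands, was in 18 of them (36%). It was in 10% of the 9908 promoters of genes tested and in 7.44% of all 27303 promoters. Of the members lower in R820W than in WT, 14 of 27 held it (51.9%), and of the other members 4 of 23 (17.4%). Those 4 were BYSL, UTP20, NOC3L and NOP10, the only member with a change above 0 in that comparison. This split rests on the calls, of which 16 of 32 held in every alternative fit and with any single library left out. The motif also sat close to the start: in 17 of the 18 (94.4%) it began between -20 and 40, counting the start site as 0, against 21.9% of the 992 tested genes with the motif. That window was chosen after the positions were seen. A match is a description of letters, and no binding was measured here.

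The 11 short promoters below are shown because they hold the motif near the start and their genes were lower in R820W than in WT. Each (GRCh38.p14) runs from -20 to 44 around the start, 5′ to 3′ on the strand of the gene, with the motif in capitals:
FBL (chr19:39846335-39846399, minus strand): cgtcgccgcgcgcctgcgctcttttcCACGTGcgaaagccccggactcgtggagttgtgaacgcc
NOP2 (chr12:6568247-6568311, minus strand): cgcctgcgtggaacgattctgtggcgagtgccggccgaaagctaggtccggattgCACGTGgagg
NOP14 (chr4:2963362-2963426, minus strand): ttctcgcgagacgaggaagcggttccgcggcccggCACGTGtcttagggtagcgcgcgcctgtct
WDR43 (chr2:28894647-28894711, plus strand): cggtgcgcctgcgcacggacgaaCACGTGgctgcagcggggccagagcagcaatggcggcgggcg
LTV1 (chr6:143843318-143843382, plus strand): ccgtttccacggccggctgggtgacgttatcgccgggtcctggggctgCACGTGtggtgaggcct
RRP9 (chr3:51941860-51941924, minus strand): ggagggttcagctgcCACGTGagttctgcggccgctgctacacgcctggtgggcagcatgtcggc
GNL2 (chr1:37595893-37595957, minus strand): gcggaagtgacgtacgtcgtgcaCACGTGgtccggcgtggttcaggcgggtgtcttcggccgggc
PWP2 (chr21:44107379-44107443, plus strand): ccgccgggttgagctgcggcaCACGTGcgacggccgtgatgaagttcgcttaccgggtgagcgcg
MRTO4 (chr1:19251785-19251849, plus strand): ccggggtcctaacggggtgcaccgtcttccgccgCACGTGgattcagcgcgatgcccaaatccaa
IMP4 (chr2:130342877-130342941, plus strand): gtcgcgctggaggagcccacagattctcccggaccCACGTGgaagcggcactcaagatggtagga
PNO1 (chr2:68157868-68157932, plus strand): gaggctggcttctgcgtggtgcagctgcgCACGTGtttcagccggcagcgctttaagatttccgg

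Whole 300-base promoters are shown for the 3 members with the motif and the smallest adjusted p between R820W and WT, PES1, NAT10 and EBNA1BP2. In PES1 and NAT10 the motif begins at 13 and at -15, and in EBNA1BP2, whose product acts in large-subunit assembly, it lies far upstream, at -237:
PES1 (chr22:30591861-30592160, minus strand): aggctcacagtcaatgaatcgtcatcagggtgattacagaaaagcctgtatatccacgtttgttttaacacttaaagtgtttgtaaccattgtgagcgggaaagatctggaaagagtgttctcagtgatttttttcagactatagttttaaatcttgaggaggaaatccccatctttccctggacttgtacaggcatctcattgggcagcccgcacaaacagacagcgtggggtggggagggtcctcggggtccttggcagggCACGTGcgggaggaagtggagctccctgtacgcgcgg
NAT10 (chr11:34105379-34105678, plus strand): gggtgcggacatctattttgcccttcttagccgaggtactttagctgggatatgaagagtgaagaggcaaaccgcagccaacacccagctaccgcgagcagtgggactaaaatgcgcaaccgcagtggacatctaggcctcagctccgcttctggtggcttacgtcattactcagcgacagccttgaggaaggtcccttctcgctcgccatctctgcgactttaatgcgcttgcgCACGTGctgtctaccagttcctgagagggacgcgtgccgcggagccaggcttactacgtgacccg
EBNA1BP2 (chr1:43172521-43172820, minus strand): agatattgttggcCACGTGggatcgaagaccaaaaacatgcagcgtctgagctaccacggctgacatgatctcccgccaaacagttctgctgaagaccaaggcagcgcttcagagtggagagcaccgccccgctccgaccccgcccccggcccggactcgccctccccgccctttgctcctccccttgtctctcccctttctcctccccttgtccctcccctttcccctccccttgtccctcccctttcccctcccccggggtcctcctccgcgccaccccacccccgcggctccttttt

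For comparison, the promoters of NPM1 and DKC1, the lower members with the smallest adjusted p among those without the motif, hold no CACGTG in this window, which says nothing of sites elsewhere:
NPM1 (chr5:171387599-171387898, plus strand): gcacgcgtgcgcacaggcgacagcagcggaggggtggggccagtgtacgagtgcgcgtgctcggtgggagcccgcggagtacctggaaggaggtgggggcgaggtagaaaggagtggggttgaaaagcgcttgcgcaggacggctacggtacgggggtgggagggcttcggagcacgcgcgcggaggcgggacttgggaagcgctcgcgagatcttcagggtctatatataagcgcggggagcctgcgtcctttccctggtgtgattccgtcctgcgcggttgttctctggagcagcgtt
DKC1 (chrX:154762614-154762913, plus strand): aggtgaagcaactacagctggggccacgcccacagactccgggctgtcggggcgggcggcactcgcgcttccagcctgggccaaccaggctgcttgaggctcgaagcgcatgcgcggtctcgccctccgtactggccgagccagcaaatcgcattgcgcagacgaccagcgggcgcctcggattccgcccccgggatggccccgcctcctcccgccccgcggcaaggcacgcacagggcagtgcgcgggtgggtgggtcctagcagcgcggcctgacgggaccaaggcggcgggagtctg

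In KO cells none of the 59 genes was called as different from WT. Between KO and WT cells with vehicle, 0 of 59 members passed the edgeR test, 3 had an unadjusted p under 0.05, and DESeq2 called 1, TCOF1, as higher (adjusted p = 0.00936). Few genes of any kind passed, 0.374% of those tested in either direction, and 1141 had an unadjusted p under 0.05. The median member change was 0.032 and the range -0.058 to 0.17. For 54 of 59 members the 95% interval lay within 0.2 of 0 on the log2 scale in both directions, so that changes as large as those of RRS1 or NPM1 in R820W cells lay outside those intervals. TCOF1 had the largest KO value, 0.17 ± 0.042 with a 95% interval of 0.088 to 0.26 and adjusted p = 0.0688. KO values lay above all WT values for 4 members, TCOF1, NHP2, NOB1 and MRTO4, which is near the 7.34% of all genes that did so.

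Set against R820W rather than WT, KO cells had 42 members higher and 0 lower, beside 13.3% of all genes higher and 13.2% lower. KO values lay above all R820W values for 46 members (20.8% of all genes). The median was 0.18 and the range -0.011 to 0.43. This comparison shares its R820W libraries with the one between R820W and WT. The 4 members that differed most were TCOF1 (0.43 ± 0.042), NPM1 (0.39 ± 0.043), NOP16 (0.31 ± 0.054) and RRP9 (0.29 ± 0.059), with adjusted p from 6.52e-09 to 0.000536. RRP9 had 40.6, 39.5 and 39.3 CPM in KO vehicle and 32.95, 34.5 and 30.3 in R820W vehicle. NOP16 had 45.4, 44.2 and 44.6 CPM in KO vehicle, above its R820W values given earlier. Neither gene overlapped between the 2 groups.

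In WT cells, 24 h of mepazine lowered nearly the whole list. Of the 59 members, 54 fell and 0 rose, beside 11.6% of all genes that fell and 12.4% that rose, and for 55 members the treated values lay below all vehicle values (19.1% of all genes, with 21.1% above). The median member change was -0.28, from -0.51 to -0.061, while the median of all genes was 0.022. The 22 large-subunit, 19 small-subunit, 4 phosphoprotein and 3 box C/D genes all fell, as did 3 of 4 box H/ACA genes and 3 of 7 RNA polymerase I genes. Leaving out any single library left 49 to 53 calls.

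BOP1, the large-subunit factor of the PES1 complex, fell the most in WT cells. It had 154, 140.5 and 146 CPM in WT vehicle and 97.4, 111 and 102 in WT mepazine, without overlap, and fell by 29.7% (-0.51 ± 0.054, adjusted p = 1.33e-07). PNO1, which holds the small-subunit rRNA end before its last cut, went from 71.3, 75.4 and 72.7 to 52.3, 56.6 and 52.3 CPM (-0.45 ± 0.056, adjusted p = 1.18e-06). RRP12, an export and processing factor of the small subunit, went from 122, 114 and 114 to 87.9, 91.7 and 85.1 CPM (-0.41 ± 0.049, adjusted p = 5.62e-07). For PNO1 and RRP12, too, every treated library lay below every vehicle library. NOP56, the box C/D scaffold, went from 511, 495 and 471 to 379.8, 384 and 352 CPM (-0.40 ± 0.041, adjusted p = 4.15e-08). HEATR1, which did not pass between R820W and WT under vehicle, fell from 273, 292 and 272 to 251, 257 and 245 CPM (-0.15 ± 0.045, adjusted p = 0.0149), a call lost without WT vehicle b or WT mepazine c.

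Of the 5 genes that did not pass in WT cells, 4 belong to RNA polymerase I transcription. UBTF, which opens ribosomal DNA chromatin for the polymerase, had -0.061 ± 0.046 (adjusted p = 0.367), and POLR1A, the largest catalytic subunit, -0.071 ± 0.063 (adjusted p = 0.457). TAF1D had -0.10 ± 0.051 and RRN3, which ties the polymerase to its promoter factors, -0.13 ± 0.062 (adjusted p = 0.167 and 0.136). NOP10 had -0.15 ± 0.077 (adjusted p = 0.18). The polymerase subunits POLR1B, POLR1C and POLR1E changed by -0.25, -0.33 and -0.29 and passed, so the 7 RNA polymerase I genes were split.

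In R820W cells the median drop under mepazine was larger. Of the 59 members, 58 fell and 0 rose, beside 24.8% of all genes that fell and 22.1% that rose, and for 58 members the treated values lay below all vehicle values (27.3% of all genes, with 26% above). The median member change was -0.51, from -0.79 to -0.10, with an all-gene median of 0.017. The count was 58 or 59 without any single library. UBTF alone did not pass (-0.10 ± 0.046, adjusted p = 0.0659).

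RRS1 fell the most, from 79.02, 86.1 and 78.9 CPM in R820W vehicle to 47.7, 47.98 and 45.7 in R820W mepazine, or by 42.1% (-0.79 ± 0.047, adjusted p = 8.59e-13). BOP1 went from 125, 135 and 138 to 84.5, 73.7 and 74.1 CPM (-0.78 ± 0.055, adjusted p = 3.35e-11). DDX21, a nucleolar DEAD-box helicase that binds rRNA, went from 572, 613 and 582 to 341, 374 and 334 CPM (-0.75 ± 0.053, adjusted p = 3.33e-11). All 3 genes were grouped here with large-subunit assembly, a label that need not cover all they do, and none had overlapping groups. PNO1, on the small-subunit path, went from 61.8, 63.1 and 60.5 to 36.4, 40.8 and 34.1 CPM (-0.74 ± 0.058, adjusted p = 1.04e-10). NCL had 1318, 1299 and 1306 CPM in the treated R820W libraries, a fall of 27.4% from R820W vehicle. NPM1 had 819, 867 and 896 CPM there, a fall of 32.4%. DKC1 had 178, 184 and 170.1 CPM there, a fall of 36.8%, against 23.1% in WT cells. Role medians ran from -0.37 for the RNA polymerase I genes to -0.53 for the large-subunit genes.

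The remaining assembly factors all fell with mepazine in both genotypes. Their log2 changes are given first in WT and then in R820W cells, and the R820W value was the more negative in every case. Of the DEAD-box helicases, DDX18 had -0.23 and -0.42, DDX56 -0.30 and -0.53 and DDX10, on the small-subunit path, -0.27 and -0.36. The NOC proteins escort precursors out of the nucleolus: NOC2L had -0.30 and -0.49, NOC3L -0.24 and -0.51 and NOC4L, the partner of NOP14, -0.23 and -0.52. Among late small-subunit factors, NOB1, the nuclease of the last rRNA cut, had -0.28 and -0.44, BYSL -0.39 and -0.59 and LTV1 -0.33 and -0.52. The early processome proteins PWP2, TBL3, WDR75 and UTP20 had -0.32 and -0.48, -0.26 and -0.38, -0.21 and -0.46, and -0.17 and -0.42. The acetyltransferase NAT10 had -0.30 and -0.47, and NOP14 -0.25 and -0.51. IMP4 and IMP3 join the same U3 complex, and their values were unlike, at -0.40 and -0.58 for IMP4 and -0.12 and -0.24 for IMP3, a difference between genes that was not tested. On the large-subunit path, the GTPases GNL2 and GNL3 had -0.24 and -0.35, and -0.37 and -0.57. PES1 had -0.37 and -0.52, WDR12 -0.19 and -0.45, NOP2 -0.31 and -0.51 and MRTO4 -0.28 and -0.53. NIP7 had -0.39 and -0.58, BRIX1 -0.23 and -0.57, PPAN -0.37 and -0.66, EBNA1BP2 -0.39 and -0.53 and WDR74 -0.36 and -0.43. The methyltransferase FTSJ3 had -0.28 and -0.43, RRP1 -0.33 and -0.57 and its paralogue RRP1B -0.16 and -0.45. Of these WT calls, those of RRP1B, NOC4L, UTP20 and IMP3 were each lost without at least 3 of the 6 single libraries.

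**Figure D3:**
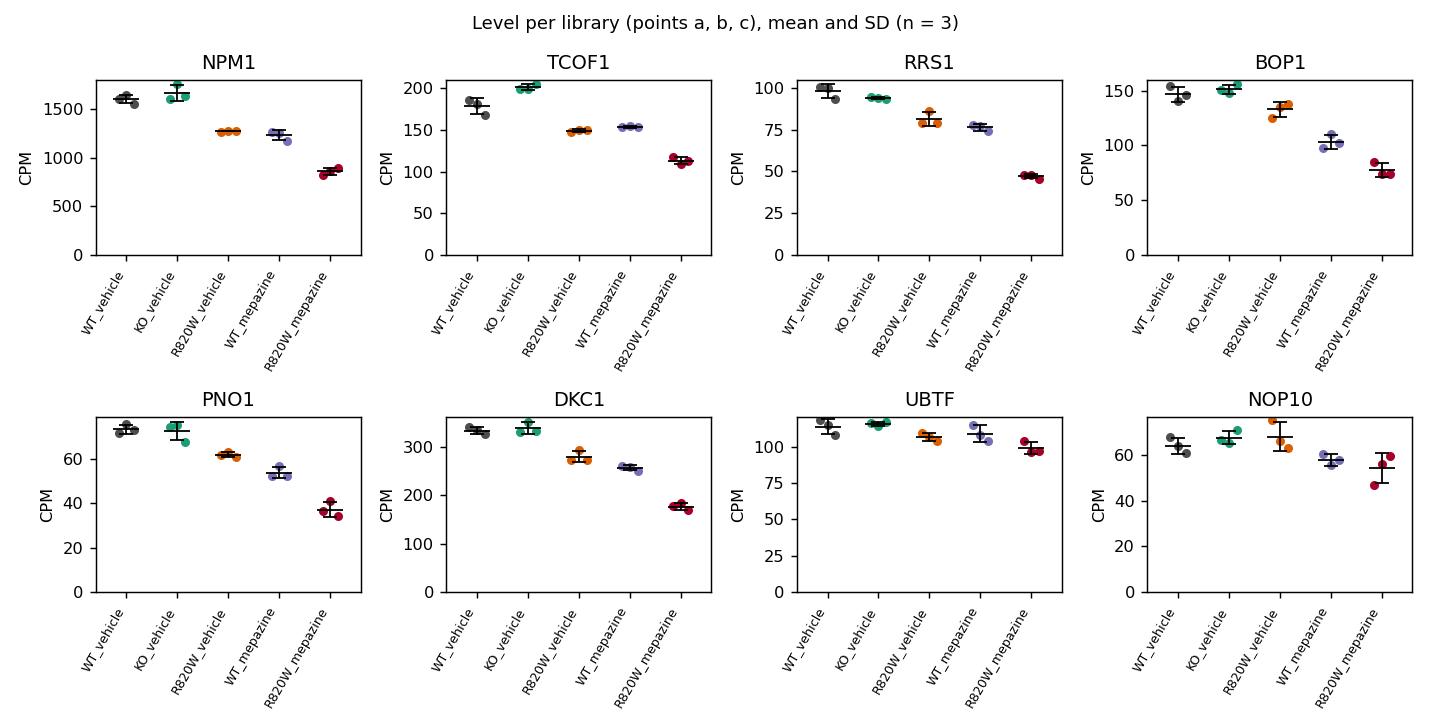
CPM of 8 genes in each library (points, in the order a, b, c), with the mean and SD of each group (n = 3) and axes from 0. NPM1, TCOF1, RRS1, BOP1, PNO1 and DKC1 are lowest in R820W mepazine without overlap, while the UBTF and NOP10 values of that group overlap those of another.

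With both genotypes under mepazine, 58 members were lower in R820W than in WT cells and 0 higher, beside 25.4% of all genes lower and 19.4% higher. For 57 members the values did not overlap (28.6% of all genes, lower). The median was -0.36, from -0.70 to -0.096. RRS1 differed most, with 77.99, 77.01 and 74.1 CPM in WT mepazine (-0.70 ± 0.047, adjusted p = 3.85e-12). NOP16 had 35.7, 35.3 and 32.6 CPM in WT mepazine and 24.5, 22.01 and 23.2 in R820W mepazine (-0.57 ± 0.057, adjusted p = 8.72e-09). RRP9 had 30.6, 31.1 and 28.4 CPM in WT mepazine and 19.96, 20.01 and 20.9 in R820W mepazine (-0.57 ± 0.064, adjusted p = 6.05e-08). Neither gene overlapped. PNO1 differed by -0.54 ± 0.059 (adjusted p = 3.66e-08). NOP10 was the 1 member that did not pass (-0.096 ± 0.078, adjusted p = 0.339).

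The difference between the 2 responses was tested directly, as the mepazine change in R820W cells minus that in WT cells. It was below 0 for 59 of 59 members, against 55.6% of all genes, with a median of -0.20 and a range of -0.43 to -0.043 (all-gene median -0.026). For 23 members it passed the test, all as a larger fall in R820W cells, beside 3.85% of all genes, 3.07% with a lower and 0.788% with a higher value. They included 12 of 22 large-subunit, 6 of 19 small-subunit and 2 of 7 RNA polymerase I genes, and 1 each of the phosphoproteins (NOLC1), box C/D (NOP56) and box H/ACA (DKC1) genes. RRS1 stood at -0.43 ± 0.065 (adjusted p = 0.000837), and it fell by 22.0% in WT and by 42.1% in R820W cells. The processome proteins UTP15 and WDR43 stood at -0.37 ± 0.086 and -0.37 ± 0.068, and RRP9 at -0.36 ± 0.087 (adjusted p = 0.0164, 0.00336 and 0.0225). UTP15 had 50.6, 53.4 and 50.01 CPM in WT vehicle and 43.2, 41.9 and 44.00 in WT mepazine. In R820W cells UTP15 had 45.7, 48.3 and 44.3 CPM with vehicle and 28.7, 32.9 and 28.3 with mepazine. WDR43 had 193, 196 and 190.0 CPM in WT vehicle and 151, 162 and 149.8 in WT mepazine. In R820W cells WDR43 had 165, 182 and 170.3 CPM with vehicle and 106, 112 and 102 with mepazine. Both genes fell in each genotype without overlap between treated and vehicle libraries.

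This count was the least stable of all comparisons. It was 7 without R820W vehicle b, 8 without WT mepazine b, 9 without WT vehicle c, 10 without R820W mepazine c, 11 without WT mepazine a, 13 without R820W vehicle c and 11 with no scaling factor. For 7 of the 23 members the call held in every alternative fit and with any single library left out. Among the genes named above, UTP15 lost it without R820W vehicle b or R820W mepazine c, RRP9 without any 1 of 6 libraries of the 12, and NOLC1 without R820W vehicle b or WT mepazine b. The sign of the called members did not change in any fit.

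The 2 responses, which share no library, ranked the members alike. Over the 59 members Pearson's r between them was 0.808 and Spearman's rho 0.776, across genes that are not independent replicates, and over all 14971 genes 0.423 and 0.672. The median ratio of the R820W to the WT log2 change was 1.75.

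**Figure D4:**
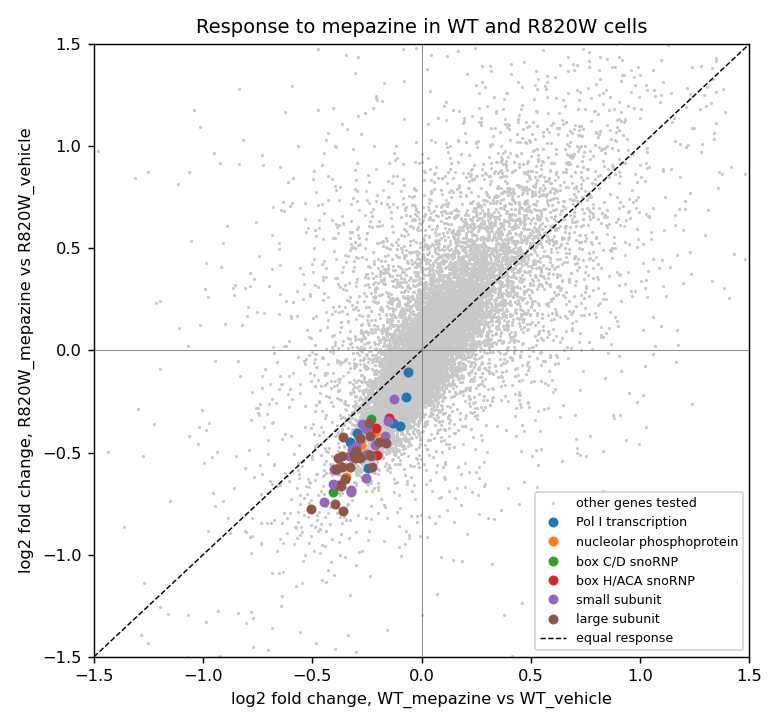
Log2 fold change with mepazine in WT cells (horizontal) and in R820W cells (vertical) for the 59 genes, coloured by role, over the other 14912 genes tested (grey, of which 233 lie outside the axes). All 59 points lie below the dashed line of equal response.

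The comparisons share libraries, since WT vehicle is the base of 3 of them and each other group enters at least 2. The 5 genes that did not pass with mepazine in WT cells are described across all groups, chosen after their values were seen. UBTF had 118, 115 and 108 CPM in WT vehicle, 109, 106 and 104 in R820W vehicle, 116, 114 and 117 in KO vehicle, 115, 108 and 104 in WT mepazine and 104, 96.1 and 97.2 in R820W mepazine. Its groups lay close together, and it passed only between the genotypes under mepazine (-0.14 ± 0.046, adjusted p = 0.017), a call lost without WT mepazine a, R820W mepazine b or R820W mepazine c and with no scaling factor. NOP10 had 67.6, 63.8 and 60.6 CPM in WT vehicle, 74.96, 66.1 and 62.7 in R820W vehicle, 66.4, 65.1 and 70.8 in KO vehicle, 60.3, 55.3 and 57.5 in WT mepazine and 46.8, 56.1 and 59.3 in R820W mepazine. Its R820W libraries were widely spread, and it passed only for mepazine in R820W cells (-0.33 ± 0.077, adjusted p = 0.0016). POLR1A and RRN3 passed with mepazine in R820W cells (-0.23 ± 0.064 and -0.36 ± 0.063), POLR1A not when no scaling factor was used, but the difference between their 2 responses did not pass (adjusted p = 0.344 and 0.151). TAF1D had 239, 249.8 and 236 CPM in WT vehicle and 231, 233 and 212 in WT mepazine, without overlap but close together. TAF1D had 210.1, 224 and 212 CPM in R820W vehicle and 159, 173 and 168 in R820W mepazine. It fell in R820W cells (-0.37 ± 0.052, adjusted p = 1.91e-06), and the difference of its responses passed (-0.27 ± 0.073, adjusted p = 0.0368).

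**Figure D5:**
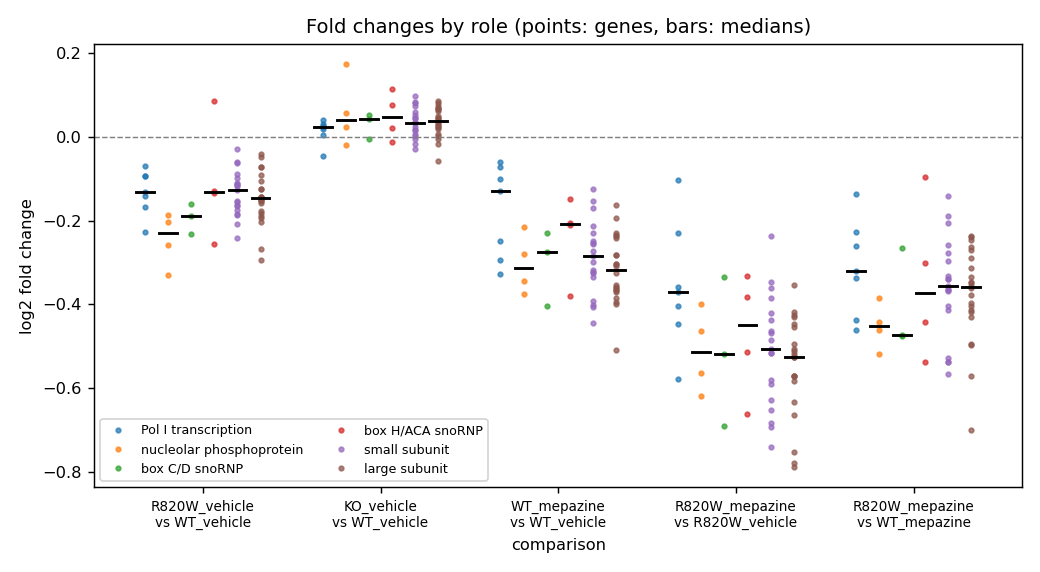
Log2 fold changes of the genes of each role (points, with bars at the role's median) in 5 comparisons. Medians of the roles run from -0.13 to -0.32 for mepazine in WT cells and from -0.37 to -0.53 for mepazine in R820W cells, and lie between 0.024 and 0.048 for KO against WT vehicle.

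MYC, which is not on the list, had 201, 193 and 197 CPM in WT vehicle and 194, 199.7 and 193 in KO vehicle. It had 154, 159 and 164 CPM in R820W vehicle, 152.96, 161 and 152 in WT mepazine and 98.6, 98.7 and 98.9 in R820W mepazine. MYC values overlapped between WT and KO vehicle and between R820W vehicle and WT mepazine, and R820W mepazine was lowest without overlap. Its part in the levels of the 59 genes was not tested.

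Other genes of ribosome biogenesis mostly moved the same way. They, like the 59, were chosen with earlier results of these data known, so they are no independent check. Of 110 such genes outside the 59, all tested, 31 were lower and 0 higher in R820W vehicle than in WT vehicle. Of all genes, 8.61% were lower and 10.6% higher there. Between KO and WT 0 of the 110 passed the edgeR test, beside 0.374% of all genes. The smallest adjusted p there was that of AATF (0.478), 6 had an unadjusted p under 0.05 and DESeq2 called 0. With mepazine 78 fell and 0 rose in WT cells, and 99 fell and 2 rose in R820W cells. Of all genes, 11.6% fell and 12.4% rose in WT cells, and 24.8% fell and 22.1% rose in R820W cells. The median change of the 110 was -0.10 between R820W and WT vehicle, -0.20 with mepazine in WT cells and -0.37 in R820W cells. Each was smaller than that of the 59 members (-0.15, -0.28 and -0.51). Between the genotypes under mepazine 93 were lower and 2 higher, beside 25.4% and 19.4% of all genes. KO vehicle had 54 higher and 0 lower than R820W vehicle, beside 13.3% and 13.2% of all genes. The difference of responses passed for 18 below and 1 above 0, beside 3.07% and 0.788% of all genes. CCDC86, a nucleolar protein, had -0.28 ± 0.041 (adjusted p = 7.3e-06) in R820W against WT vehicle, -0.51 ± 0.041 (adjusted p = 5.26e-10) with mepazine in WT cells and -0.85 ± 0.042 (adjusted p = 2.18e-14) in R820W cells. LYAR, a further nucleolar protein, had -0.49 ± 0.051 (adjusted p = 6.52e-08) and -0.86 ± 0.054 (adjusted p = 1.91e-12) with mepazine in WT and R820W cells. AATF, of a small-subunit processome complex, had -0.27 ± 0.044 (adjusted p = 4e-05) in R820W against WT vehicle, and RSL1D1, which acts in large-subunit assembly, -0.37 ± 0.043 (adjusted p = 2.74e-07) with mepazine in WT cells. The snoRNP assembly factor ZNHIT6 had -0.30 ± 0.054 (adjusted p = 0.000157) in R820W against WT vehicle. GTPBP4, a nucleolar GTPase, had -0.58 ± 0.042 (adjusted p = 2.19e-11) with mepazine in R820W cells. The exceptions with mepazine in R820W cells were TAF1C, a part of the promoter selectivity factor, and the nucleolar protein gene GLTSCR2, with log2 changes of 0.35 and 0.16 (adjusted p = 3.68e-05 and 0.0259). Both were also higher in R820W than in WT cells under mepazine (0.24 and 0.20). TAF1C was the 1 gene of the 110 whose difference of responses passed the test above 0 (0.30, adjusted p = 0.0475).

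Genes of cell proliferation moved with the list in some comparisons. Of 20 proliferation markers, 0 were lower and 2 higher in R820W vehicle than in WT vehicle, CCNE2 (0.47) and MCM5 (0.12), with a median of -0.016. Of all genes, 8.61% were lower and 10.6% higher there. Between KO and WT 0 of the 20 passed the edgeR test, 2 had an unadjusted p under 0.05 and DESeq2 called 0. With mepazine, 2 fell and 0 rose in WT cells (TYMS and RRM2, median -0.033), which is near the 11.6% of all genes that fell. In R820W cells 15 fell and 0 rose (median -0.19), beside 24.8% of all genes that fell. Under mepazine 13 were lower and 1, CCNE2, higher in R820W than in WT cells, beside 25.4% and 19.4% of all genes. KO vehicle had 4 higher and 1 lower than R820W vehicle, beside 13.3% and 13.2% of all genes. The difference of responses passed for 4, all below 0 (CCNA2, CCNB1, PLK1 and RRM2), beside 3.07% of all genes below 0. Their part in the result was not tested. Markers of other cell types were low but also moved. The summed level of 8 fibroblast markers was 2.47 to 2.71 CPM in WT vehicle, 2.44 to 2.94 in KO vehicle, 5.33 to 11.2 in R820W vehicle, 3.52 to 5.2 in WT mepazine and 23.4 to 33.2 in R820W mepazine, with 3 of the 8 tested and PDGFRB at 0 in all R820W mepazine libraries. The 5 endothelial markers, mostly CDH5, summed to 4.42 to 6.95 CPM in WT vehicle, 4.78 to 5.5 in KO vehicle, 7.7 to 10.5 in R820W vehicle, 10.1 to 13.3 in WT mepazine and 22.2 to 35.9 in R820W mepazine. The 6 melanocyte markers, mostly MITF, summed to at most 18.1 CPM in any library, with TYR and DCT at 0 in all 5 groups, and the 7 leukocyte markers, mostly CD68, to at most 7.27 CPM. Their part in the result was not tested.

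Some members also carry other RNA genes. In GENCODE v29 (GRCh38), 8 of the 59 members (13.6%) contain snoRNA genes on their own strand, against 1.55% of 12099 protein-coding genes tested. They are NCL, NOP56, NOP58, DKC1, WDR43, GNL3, PPAN and TAF1D, and TAF1D holds the most, with 8. No source used here says whether reads of these snoRNAs were counted with the host, and host levels could include them. All 8 fell with mepazine in R820W cells and 7 of the 8, all but TAF1D, in WT cells. That is close to the whole list, of which 58 and 54 of the 59 members fell. Of all genes tested, 24.8% fell in R820W cells and 11.6% in WT cells.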

How the data were processed

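RNA sequencing covered 15 libraries of HaCaT keratinocytes, in 5 groups of 3 that follow the titles. The authors deposited whole read counts per gene symbol, with no normalisation. Total RNA was turned into libraries with a directional kit, which keeps the strand, per the labels' protocols. The build hg19 and the tools DESeq2, MACS2 and FastQC appear, with no role, in the submitters' processing notes. No source used here gives the aligner, the counter, the annotation or the strand setting, so a gene may share reads with its near-identical copies or with a gene overlapping it on either strand. RefSeq promoters and GENCODE v29 are on GRCh38 and were joined by symbol only.

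Counts of at least 10 were required by filterByExpr, which left 14971 of 28518 symbols. Library sizes were scaled by TMM. One robust quasi-likelihood fit of edgeR 4.0.16 (R 4.3.3, limma 3.58.1) held all 15 libraries with group as the only term and 10 residual degrees of freedom, and 7 contrasts were tested two-sided. The edgeR script was tested on simulated data. Totals of 20630099 to 26974363 counts limit the precision, and intervals cover counting error and the spread between these libraries only. The series describes 3 independent experiments, but the labels do not tie letters to cultures, so p-values measure only how far these samples spread, which may be technical. All 15 libraries were kept as separate, since chi-square per gene between replicates was 3.31 to 14.8 (genes of 20 or more counts).

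The 59 members, their roles, the list of 110 further ribosome biogenesis genes, the 20 proliferation markers, the marker lists and the tests were chosen with earlier results of these data known. Values in every library are given, for each contrast, for up to 4 members with the lowest or highest log2 fold changes among those called and without overlap, and for the member with the most counts in each role. MYC and CARD14 are given in every library, and the further genes by counts with those of smallest adjusted p, not all of which are printed. Promoters are the 3 with and 2 without the motif of smallest adjusted p between R820W and WT vehicle; the 11 short windows were added after the motif positions were seen. Every member passed in at least 1 contrast, so no promoter of an uncalled member is shown. Alternatives were DESeq2 1.42.0, its size factors in edgeR, library totals with no scaling factor, no filter, the letter as a block, and leaving out each library in turn. Figures and promoter searches used Python 3.11.15.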

Additional observations from a re-analysis of the deposited data

Results flagged for a closer look

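The fall with mepazine differed between the genotypes by a direct test (edgeR interaction, adjusted p under 0.05) for 23 of the 59 members, each falling further in R820W than in WT cells. On the log2 scale, the R820W change minus the WT change was -0.43 for RRS1, -0.37 for UTP15 and WDR43 (-0.372 and -0.371), -0.36 for RRP9, -0.35 for DDX21, -0.34 for BRIX1 and -0.33 for POLR1B. It was -0.30 for PNO1, -0.29 for PPAN, RRP1B and NOP56, -0.28 for DKC1 and NOP16, and -0.27 for NOLC1, TAF1D and BOP1. It was -0.26 for NOP14, -0.25 for WDR12, -0.245 for RRP12, -0.24 for RRP1 and MRTO4, -0.22 for DDX56 and -0.20 for GNL3. With 3 libraries in a group, single libraries were not searched for outlying values.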

How the results depend on the processing

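No member called in a comparison changed sign under any alternative. With library totals and no scaling factor, under which the median change of all genes lay between -0.048 and 0.084, the members called were 20 between R820W and WT vehicle and 11 for the difference of responses. Under the same setting the median member change was -0.12 for R820W against WT vehicle, -0.24 for mepazine in WT, -0.44 for mepazine in R820W, -0.30 between the genotypes under mepazine and 0.14 for KO against R820W. Between KO and WT, DESeq2, no filter and the letter block each called 1 member, TCOF1. With single libraries left out, members called ran from 19 to 31 between R820W and WT vehicle and from 7 to 31 for the difference of responses. Median changes then ran from -0.53 to -0.49 for mepazine in R820W, from 0.16 to 0.20 for KO against R820W and from -0.24 to -0.19 for the difference of responses. The cause of these shifts was not tested. Every call held in each alternative fit and with any library left out for 16 of 32, 48 of 54, 57 of 58, 54 of 58, 29 of 42 and 7 of 23 members, for R820W against WT vehicle, mepazine in WT, mepazine in R820W, the genotypes under mepazine, KO against R820W and the difference of responses. Same-lettered libraries of different groups deviated together only weakly (r from -0.027 to 0.156 over 30 pairs, 5 above 0.1), so the letters were not taken as pairs. For 27 of 30 pairs r was above the mean r with the other letters. Deviations within a group sum to 0, so this mostly says that those r were above 0. With the letter as a replicate block, 39 members passed for the difference of responses and 39 between R820W and WT vehicle, while calls over all genes also rose, to 1401 from 577 and to 3522 from 2879. Changes near 0.1 on the log2 scale lie close to what 3 libraries a group resolve, since the median SE over members was 0.048 to 0.050 between 2 groups, and 0.070 for the difference of responses.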
